A study of Arabidopsis thaliana with 9 samples.

Results

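Transcript levels of 10 genes of flavonoid and anthocyanin synthesis were followed in Arabidopsis thaliana root tips. The genes were listed by locus as a pathway, and earlier results of these data were known when they were chosen. Counts of called genes below are therefore not from a blind choice. The genes are CHS, CHI, F3H, TT7, FLS1, DFR, LDOX, GSTF12, MYB12 and MYB111, which are 10 of the 33602 loci counted in every library. Root tips of 2 to 3 mm were cut 5 days after germination, and mRNA was sequenced from 9 libraries, 1 for each of 9 groups, so no group had a replicate. Wild-type plants (Col-0) and the stop1 and almt1 mutants, for which the labels name no allele, were each grown on high phosphate (1 mM) and on low phosphate (5 µM). A further wild-type group, called low iron here, had low phosphate in medium to which no iron was added and in which 100 µM of the chelator ferrozine bound traces of it. A further group of each mutant received low phosphate with 1 mM L-malate. All groups shared 0.1X modified MS medium with 1% sucrose and 1% agar at pH 5.7. STOP1 is a transcription factor required for expression of ALMT1, a malate channel of the root tip, and the series compares how tips of these genotypes respond to scarce phosphate.

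Flavonoids are made from coumaroyl-CoA, the product of the general phenylpropanoid pathway. Chalcone synthase (CHS) and chalcone isomerase (CHI) build the flavanone skeleton, flavanone 3-hydroxylase (F3H) turns it into dihydroflavonols, and the flavonoid 3'-hydroxylase TT7 adds a hydroxyl group. Flavonol synthase (FLS1) leads from there to flavonols such as quercetin and kaempferol glycosides, the main flavonoids of Arabidopsis roots, whereas dihydroflavonol reductase (DFR) and leucoanthocyanidin dioxygenase (LDOX) lead to anthocyanins. GSTF12 (also TT19) is a glutathione S-transferase needed to bring anthocyanins into the vacuole. MYB12 and MYB111 are MYB factors that activate CHS, CHI, F3H and FLS1, and anthocyanin genes are controlled separately by other MYB factors with bHLH partners and TTG1.

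The promoters of CHS, CHI, TT7 and FLS1 are shown because the levels of these genes were correlated over the 9 libraries. That of MYB12, a regulator of CHS, CHI and FLS1, is shown beside them. MYB12 was not correlated with CHS in this way, though it too was called higher with low iron. Each sequence is the 250 bases before the annotated gene start on the gene's strand, read from the TAIR10.1 RefSeq genome and located by locus in that build's own annotation. The windows are chr5:4488226-4488475 on the plus strand for CHS, chr3:20431598-20431847 on the minus strand for CHI, chr5:2560078-2560327 on the plus strand for TT7, chr5:2803583-2803832 on the plus strand for FLS1, and chr2:19476076-19476325 on the plus strand for MYB12. Capitals mark ACGT cores (the G-box CACGTG contains one) and sites of the form GNATATNC, the site of the phosphate-response factor PHR1, on either strand.
CHS: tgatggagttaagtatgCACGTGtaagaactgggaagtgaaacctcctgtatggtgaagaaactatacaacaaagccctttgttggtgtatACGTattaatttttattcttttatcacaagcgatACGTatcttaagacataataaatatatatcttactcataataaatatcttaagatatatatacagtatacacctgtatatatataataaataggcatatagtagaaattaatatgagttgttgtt
CHI: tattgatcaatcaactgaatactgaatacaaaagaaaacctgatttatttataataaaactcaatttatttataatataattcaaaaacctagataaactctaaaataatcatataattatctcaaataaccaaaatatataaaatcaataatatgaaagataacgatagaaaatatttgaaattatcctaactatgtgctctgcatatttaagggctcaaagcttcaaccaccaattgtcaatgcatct
TT7: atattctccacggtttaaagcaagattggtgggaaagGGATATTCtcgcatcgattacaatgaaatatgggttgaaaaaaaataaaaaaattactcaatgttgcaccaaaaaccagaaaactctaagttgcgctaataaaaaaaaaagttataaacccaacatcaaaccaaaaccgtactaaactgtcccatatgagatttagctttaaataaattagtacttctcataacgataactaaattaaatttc
FLS1: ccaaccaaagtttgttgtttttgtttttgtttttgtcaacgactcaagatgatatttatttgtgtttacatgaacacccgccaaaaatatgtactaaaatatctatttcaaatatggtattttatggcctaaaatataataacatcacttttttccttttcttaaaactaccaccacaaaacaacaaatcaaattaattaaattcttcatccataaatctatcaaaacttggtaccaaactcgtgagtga
MYB12: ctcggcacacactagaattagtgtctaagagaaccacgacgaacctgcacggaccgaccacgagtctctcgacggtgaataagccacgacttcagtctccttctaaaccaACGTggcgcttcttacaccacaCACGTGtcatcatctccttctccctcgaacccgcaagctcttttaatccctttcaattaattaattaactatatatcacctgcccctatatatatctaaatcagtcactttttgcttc

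A G-box was present in the windows of CHS, F3H, DFR and MYB12, and in 6.58% of 26711 promoters of the same length. ACGT cores numbered 3 in CHS, 5 in F3H, 5 in DFR, 2 in MYB12 and 1 in MYB111, and 44.2% of all promoters held at least 1. A PHR1 site was found once in TT7 and 3 times in MYB111, against 5.44% of all promoters. The MYB elements ACCTACC and ACCAACC, found in 3.81% of promoters, matched in none of the 10 windows on either strand. The windows of CHI, FLS1, LDOX and GSTF12 held none of the searched letters. A match or its lack describes these letters only.

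Gene counts ranged from 20619740 to 37189056 per library, and a count of 3, taken as the floor, was worth 0.0767 to 0.147 CPM (counts relative to library size, scaled by TMM). Intervals and floors cover counting error only. In the low-iron and the malate libraries, 2.55% to 2.65% of reads were ambiguous between genes against 0.956% to 1.69% in the other 6, so the set a library belongs to and its treatment cannot be told apart in those comparisons. Wild type at low phosphate had 44.9% of its reads aligned at more than 1 place, against 4.19% to 14.3% elsewhere. ALMT1, whose expression requires STOP1, had 1, 2 and 0 counts in the libraries labelled stop1, against 575 to 3232 counts in the other 6. STOP1 in stop1 and ALMT1 in almt1 were still transcribed, so the transcript of the mutated gene itself checks neither label. The names mean the libraries so labelled. The phosphate-starvation RNA IPS1 stood at 0.249 to 0.418 CPM at high phosphate and at 30.9 to 224 CPM in the other libraries. Markers of the meristem (4 genes), root cap (3), root hairs (3) and endodermis (3) were above the floor in all 9 libraries.

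Of the 10 genes, 6 were expressed well enough to pass the filter on low counts: CHS, CHI, TT7, FLS1, GSTF12 and MYB12. The 4 others, F3H, DFR, LDOX and MYB111, did not pass it and were not tested. Per kilobase of exon, CHS had the highest level in every library (38.8 to 628 CPM per kb). FLS1 ranged from 15.1 to 152 CPM per kb and CHI from 5.94 to 92.6, and the order of these genes and MYB12 (5.58 to 16.6 CPM per kb) differed between libraries: MYB12 was above CHI in the 3 libraries at high phosphate, and CHI above FLS1 in wild type at low phosphate. TT7 ranged from 1.04 to 18.1 CPM per kb and was below MYB12 except in the low-iron library and in stop1 with malate. GSTF12 was the lowest of the 6 in every library, at 0.191 to 5.54 CPM per kb. The highest level was 16.2 times the lowest for CHS, 15.6 times for CHI, 17.4 times for TT7 and 10.1 times for FLS1. For MYB12 this ratio was 2.96.

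**Figure D1:**
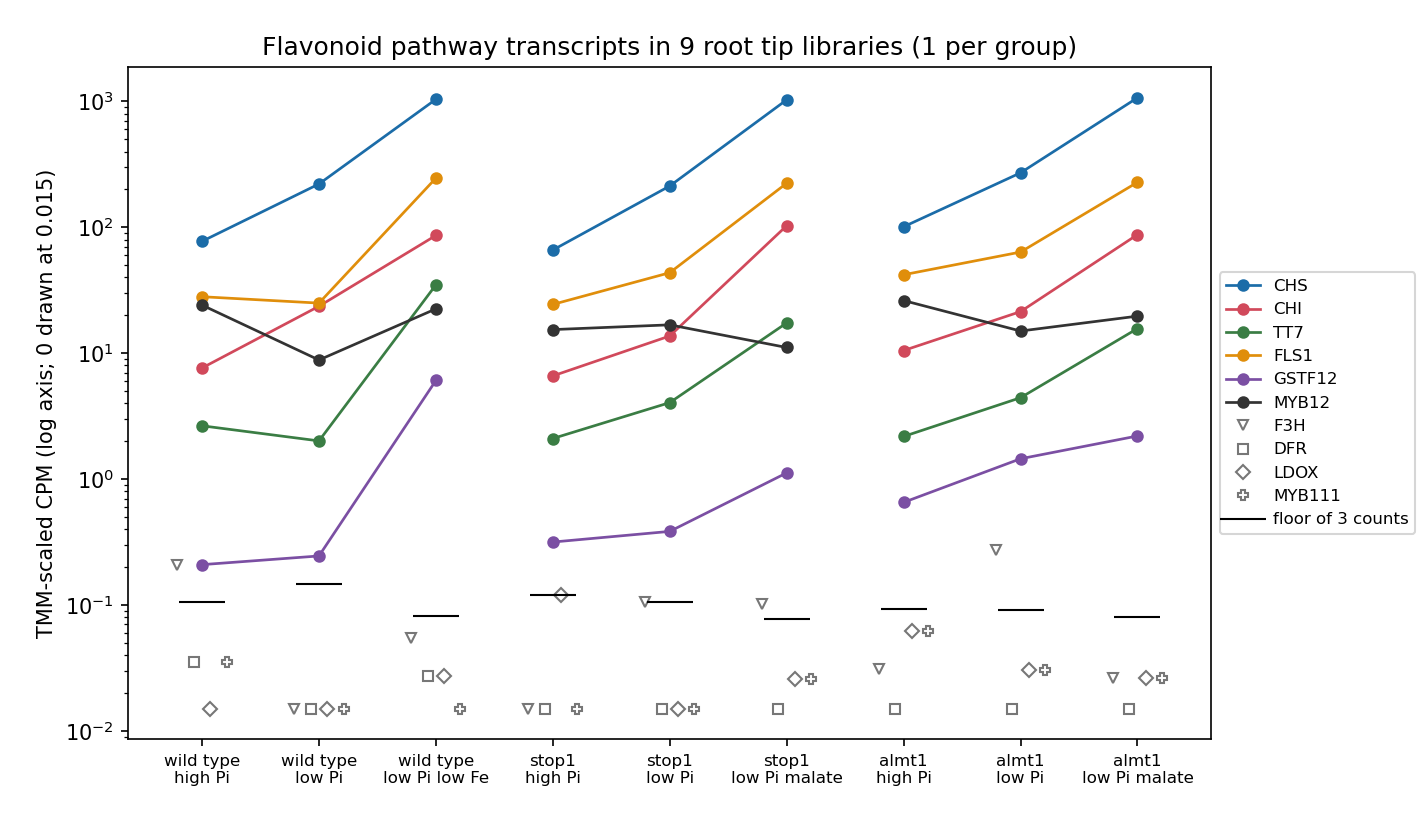
TMM-scaled CPM (log axis) of the 10 genes in the 9 libraries, 1 point per library. Lines join the libraries of 1 genotype, open symbols are the 4 genes that did not pass the filter (zeros drawn at the bottom, points shifted sideways for legibility), and short black lines mark the floor of 3 counts. CHS lies at 66 to 101 CPM at high phosphate and at 1030 to 1070 CPM in the low-iron and malate libraries, while MYB12 stayed between 8.83 and 26.2 CPM.

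Values are given below in the order high phosphate, low phosphate and the third condition, which was low iron for wild type and malate for the mutants. CHS (AT5G13930), which opens the pathway, stood at 77.4, 221 and 1040 CPM in wild type, at 66, 213 and 1030 CPM in stop1 and at 101, 271 and 1070 CPM in almt1. In each genotype CHS rose from high to low phosphate and again to the third condition, and how many other genes did so was not counted. The low-iron library (1040 CPM) and the malate libraries (1030 and 1070 CPM) lay close together, though these are different treatments of different genotypes. CHS took 0.0065% of all gene counts in stop1 at high phosphate and 0.113% in almt1 with malate. CHI (AT3G55120), which closes the ring of the chalcone, stood at 7.63, 23.6 and 86.2 CPM in wild type, 6.6, 13.7 and 103 CPM in stop1 and 10.5, 21.4 and 87.5 CPM in almt1. Its order of conditions was that of CHS in each genotype, with the highest level in stop1 with malate.

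F3H (AT3G51240), the enzyme between CHI and the flavonol branch, was nearly without counts: 6, 0 and 2 in wild type, 0, 3 and 4 in stop1 and 1, 9 and 1 in almt1, 26 in all against 145261 for CHS. In the TAIR10.1 annotation, 1415 of the 1508 exon bases of F3H (93.8%) are shared with AT3G51238, a non-coding RNA locus on the opposite strand. The libraries do not keep the strand, and the strand setting of the counting is not given in the sources used here. AT3G51238 had 1 count in stop1 at high phosphate and 0 in the other 8 libraries. Over all protein-coding loci, 330 of 26712 (1.24%) share at least 90% of their exon bases with another locus, and their median total over the 9 libraries was 84.5 counts against 2370 for the rest. The level of F3H is therefore uncertain, and the part of the overlap in it was not tested.

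FLS1 (AT5G08640), the flavonol-forming enzyme, stood at 28.1, 25 and 246 CPM in wild type, at 24.4, 43.6 and 224 CPM in stop1 and at 42, 63.6 and 228 CPM in almt1. The low-iron and malate libraries were far above the others, and wild type at low phosphate lay among the high-phosphate libraries. TT7 (AT5G07990), which sets the balance of quercetin to kaempferol, stood at 2.65, 2.01 and 34.9 CPM in wild type, 2.1, 4.05 and 17.4 CPM in stop1 and 2.18, 4.43 and 15.7 CPM in almt1. Here too wild type at low phosphate was at the level of the high-phosphate libraries, and low iron was above both malate libraries.

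Few reads were counted for the enzymes of the anthocyanin branch. DFR (AT5G42800) had 2 counts in all 9 libraries together, with at most 1 in a library, and LDOX (AT4G22880) had 9, with at most 3. Words of 50 bases that occur elsewhere in the genome made up 1.22% of DFR and 3.99% of LDOX. GSTF12 (AT5G17220) was low but present, with 6, 5 and 222 counts in wild type, 8, 11 and 44 in stop1 and 21, 48 and 83 in almt1. In CPM its level was 0.209, 0.245 and 6.07 in wild type, 0.316, 0.384 and 1.12 in stop1 and 0.653, 1.45 and 2.2 in almt1. The low-iron library was the highest, and each almt1 library exceeded the stop1 library of the same condition. GSTF12 shares 108 exon bases (9.85%) with AT5G17230 on the opposite strand, which had 318 to 760 counts per library, and the part of this overlap was not tested.

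MYB12 (AT2G47460), the flavonol activator, stood at 24.1, 8.83 and 22.5 CPM in wild type, at 15.4, 16.8 and 11.1 CPM in stop1 and at 26.2, 15 and 19.7 CPM in almt1. The lowest library was wild type at low phosphate and the highest almt1 at high phosphate, and the 3 conditions overlapped. MYB111 (AT5G49330), its close relative, had 6 counts in all, with at most 2 in a library.

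Low phosphate was first compared with high phosphate across the 3 genotypes. CHS and CHI rose, and no other gene of the 10 was called. CHS was 2.85, 3.23 and 2.7 times higher at low than at high phosphate in wild type, stop1 and almt1, a fitted log2 change of 1.53 (SE 0.126, edgeR adjusted p = 0.0176). CHI was 3.09, 2.08 and 2.05 times higher, a fitted log2 change of 1.22 (SE 0.167, edgeR adjusted p = 0.0373). Both were higher in 3 of 3 genotypes. The 2 called of 6 tested genes compare with 1.69% of 20948 genes called higher and 1.77% called lower. The median fitted log2 fold change was 0.59 over the 6 genes and 0.01 over all genes. This test used the genotypes as stand-in replicates, so its p-values measure the spread between these libraries. Without the stop1 pair neither CHS (adjusted p = 0.18) nor CHI (0.215) was called by edgeR. Without the wild-type pair, which holds the library with many multiply aligned reads, TT7 (log2 0.98, edgeR adjusted p = 0.0073) and FLS1 (0.71, 0.0023) were called higher as well. That fit called 4629 genes of all, against 725 with all 3 genotypes.

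Within genotypes, the low to high phosphate ratios of both flavonol genes were below 1 in wild type and above 1 in the mutants, a difference that missed the threshold. FLS1 at low phosphate was 0.89 times its high-phosphate level in wild type, 1.79 times in stop1 and 1.52 times in almt1. TT7 was 0.759 times its high-phosphate level in wild type, with a 95% counting interval of the log2 ratio of −0.98 to 0.17, against 1.93 times in stop1 and 2.04 times in almt1. MYB12 was 0.366 times its high-phosphate level in wild type, 1.09 times in stop1 and 0.574 times in almt1. In the fit over both mutants, CHS (log2 1.55, SE 0.161, edgeR adjusted p = 0.00862) and TT7 (0.99, SE 0.169, edgeR adjusted p = 0.03) rose, beside 2.3% of 21229 genes called higher and 3.11% lower. Neither was called when any 1 of the 4 mutant libraries of this contrast was left out, with adjusted p of 0.0586 to 0.168 for CHS and 0.169 to 0.322 for TT7. CHI (1.04, SE 0.256, edgeR adjusted p = 0.0836) and FLS1 (0.71, SE 0.191, edgeR adjusted p = 0.0924) missed the threshold there but passed it in DESeq2 (0.00451 and 0.0287) and in edgeR with the 6 libraries without low iron or malate (0.000743 and 0.00224). The latter fit called 4631 genes of all, against 1148 with 9 libraries.

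In wild type alone, CHS (log2 1.51, SE 0.228, edgeR adjusted p = 0.0125) and CHI (1.63, SE 0.367, edgeR adjusted p = 0.0357) rose, beside 12% of genes called higher and 9.79% called lower. This fit assumes that the lone wild-type libraries vary as the mutants do, and CHI lost its call without either mutant at high or at low phosphate (adjusted p = 0.0541 to 0.0703). MYB12 gave a log2 change of −1.45 (SE 0.387, edgeR adjusted p = 0.051), just short of the threshold, and was called lower with DESeq2 (−1.47, adjusted p = 0.00582), with the RLE factors in edgeR (−1.47, 0.0387), with 6 libraries (−1.49, 0.0173), and when a mutant library at low phosphate or with malate was left out (−1.45, 0.0197 to 0.0307). In the test of the wild-type minus the mutant response, neither edgeR nor DESeq2 called any of the 6 genes, where edgeR called 0.688% of all genes higher and 0.561% lower. An unadjusted edgeR p under 0.05 was reached by 2 of the 6 genes and by 4965 of 21229 genes. Those 2 were TT7 at −1.39 (SE 0.311, edgeR adjusted p = 0.0914) and FLS1 at −0.88 (SE 0.336, edgeR adjusted p = 0.195). In the edgeR fit limited to the 6 libraries without low iron or malate, TT7 (−1.42, adjusted p = 0.0288) and FLS1 (−0.92, 0.014) were called. That fit called 3764 genes of all, against 265 with 9 libraries. With 1 or the other malate library left out, the changes were −1.39 and −0.885. Like the MYB12 fits with fewer libraries, these share their libraries and leave fewer residual degrees of freedom, so they are not separate checks. For CHS the difference was −0.04 (SE 0.274, edgeR adjusted p = 0.951).

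**Figure D2:**
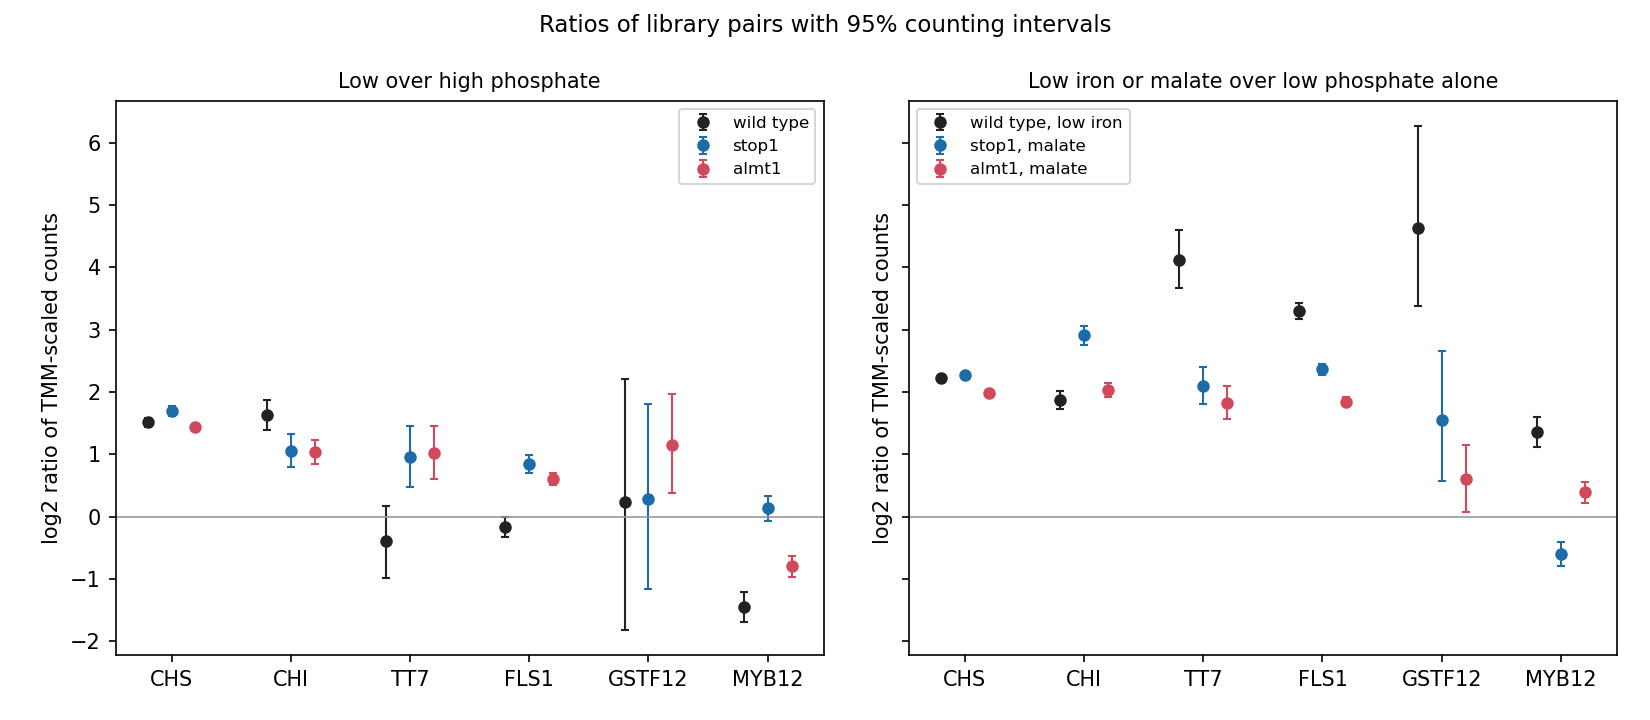
Log2 ratios of TMM-scaled counts between single libraries for the 6 genes that passed the filter, with exact 95% counting intervals as bars. Left, low over high phosphate in wild type (black), stop1 (blue) and almt1 (red), where CHS lies between 1.43 and 1.69 in all genotypes. Right, low iron in wild type and malate in the mutants over low phosphate alone, where TT7 and GSTF12 in wild type reach 4.12 and 4.63.

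With malate added to the mutants at low phosphate, the enzyme transcripts CHS, CHI, TT7 and FLS1 rose. CHS was 4.81 times higher with malate than without it in stop1 and 3.95 times in almt1, a fitted log2 change of 2.13 (SE 0.164, edgeR adjusted p = 0.00415). CHI was 7.51 and 4.08 times higher (2.48, SE 0.253, edgeR adjusted p = 0.00649), and the CHI ratio was the one in which the mutants differed most among the 4 enzymes. FLS1 was 5.14 and 3.58 times higher (2.12, SE 0.196, edgeR adjusted p = 0.00542) and TT7 4.28 and 3.53 times (1.96, SE 0.152, edgeR adjusted p = 0.00415). GSTF12 was 2.93 and 1.52 times higher and was not called (0.94, SE 0.319, edgeR adjusted p = 0.0607). MYB12 was 0.662 times its level without malate in stop1 and 1.31 times in almt1 (−0.12, SE 0.262, edgeR adjusted p = 0.745). So 4 of 6 tested genes were called higher, where 17.2% of all genes were called higher and 19.4% lower, with a median log2 fold change of 2.04 over the 6 and −0.02 over all genes. Without stop1 at low phosphate none of the 4 was called (edgeR adjusted p = 0.0532 to 0.0659), while their log2 fold changes were 1.86 to 2.24.

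Beside these changes, the summed level of the 4 meristem markers was 52.6 to 65 CPM in the 6 libraries without low iron or malate and 94.4 and 99.7 CPM with malate. That of the 3 root cap markers was 48.8 to 58.7 CPM against 70.3 and 67 CPM. Of these, SMB stood at 24.2 and 21.9 CPM in stop1 and almt1 with malate, against 9.52 to 14.9 CPM in the 6 libraries. BRN1, at 34.1 and 34.6 CPM, lay within its range there of 25.3 to 36.8 CPM, and BRN2 was at 12 and 10.4 CPM against 7.47 to 11.9 CPM. The 3 endodermis markers summed to 230 to 343 CPM in the 6 libraries and to 150 and 249 CPM with malate, and the 3 root hair markers to 200 to 234 CPM against 204 and 237 CPM. The part of these tissue markers in the result was not tested, and in whole tips more cells of a type and more RNA per cell cannot be told apart.

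With low iron in wild type at low phosphate, all 6 tested genes were called higher, where 12.5% of all genes were called higher and 18.1% lower. The 4 genes that did not pass the filter are not in this count. GSTF12 rose by 4.61 on the log2 scale (SE 0.548, edgeR adjusted p = 0.0042), from 5 counts to 222, and TT7 by 4.12 (SE 0.245, edgeR adjusted p = 0.00107). FLS1 rose by 3.3 (SE 0.293, edgeR adjusted p = 0.00252), CHS by 2.23 (SE 0.232, edgeR adjusted p = 0.00305) and CHI by 1.87 (SE 0.35, edgeR adjusted p = 0.0167). As single-library ratios these were 24.7 for GSTF12, 17.4 for TT7, 9.84 for FLS1, 4.69 for CHS and 3.65 for CHI. MYB12 rose by 1.35 (SE 0.385, edgeR adjusted p = 0.0487), but was not called without the filter (adjusted p = 0.0526) or without either mutant at high phosphate (0.0866 and 0.0878). The low-iron library had 88.7 CPM of summed meristem markers and 67.1 CPM of root cap markers, 327 CPM of root hair markers and 433 CPM of endodermis markers. Each of these sums exceeded its range in the 6 libraries without low iron or malate, and their part in the result was not tested. Not every marker did. BRN1 of the root cap stood at 30.4 CPM (25.3 to 36.8 CPM in the 6), MYB36 of the endodermis at 38.2 CPM (29.9 to 40.5) and PLT2 of the meristem at 9.62 CPM (5.89 to 10.1). Most of the meristem sum was SCR, which stood at 34.9 CPM at low phosphate and 63.3 CPM with low iron and was called higher (edgeR adjusted p = 0.0134), while WOX5 went from 7.11 to 0.437 CPM and was called lower (edgeR adjusted p = 0.00648).

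Since the wild-type library at low phosphate differed in its alignment, low iron was also set against wild type at high phosphate. These single-library ratios have no test, and the pair differs in phosphate as well as in iron, so they are not changes with low iron alone. CHS was 13.4 times higher, CHI 11.3 times, TT7 13.2 times and FLS1 8.76 times. GSTF12 was 29 times higher, from 6 counts to 222. Increases of at least 2-fold with an interval above equality were seen for 12.7% of all genes. MYB12 did not differ there beyond counting error, with a log2 ratio of −0.10 (95% counting interval −0.24 to 0.05). Set side by side and all over low phosphate alone, TT7 was 17.4 times higher with low iron in wild type and 4.28 and 3.53 times with malate in stop1 and almt1, and GSTF12 24.7, 2.93 and 1.52 times. Low iron and malate were given to different genotypes, so the difference between them was not tested.

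Mutants and wild type in the same condition were compared last. At high phosphate edgeR called none of the 6 genes and none of 21229 genes, with 893 genes at an unadjusted p under 0.05, and DESeq2 called 0 genes as well. CHS was 0.853 times the wild-type level in stop1 and 1.3 times in almt1, and CHI 0.865 and 1.37 times, so the mutants lay on either side of wild type. At low phosphate TT7 was higher in the mutants, by 1.08 on the log2 scale (SE 0.213, edgeR adjusted p = 0.0345), beside 2.12% of genes called higher and 4.48% lower. It was 2.02 times the wild-type level in stop1 and 2.2 times in almt1, and it lost its call without any 1 of the 4 mutant libraries at high and low phosphate (adjusted p = 0.0603 to 0.128). FLS1 was 1.75 and 2.55 times the wild-type level and was not called (1.10, SE 0.373, edgeR adjusted p = 0.128), though DESeq2 called it (1.12, adjusted p = 0.0156), as did edgeR with a stop1 against almt1 term (1.08, 0.0484). CHI was 0.582 and 0.909 times the wild-type level (−0.42, SE 0.341, edgeR adjusted p = 0.472). The contrast rests on the single wild-type library with 44.9% multiply aligned reads, whose part in these values was not tested.

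Between the mutants, almt1 exceeded stop1 in CHS, CHI and FLS1 without malate. At high phosphate stop1 had 0.656 times the CHS, 0.632 times the CHI and 0.58 times the FLS1 of almt1, and at low phosphate 0.787, 0.64 and 0.686 times. TT7 in stop1 was 0.962 times almt1 at high and 0.914 times at low phosphate, and the counting intervals of both log2 ratios included equality (−0.60 to 0.48 and −0.49 to 0.23). With malate the ratios were 0.958 for CHS, 1.18 for CHI and 0.983 for FLS1, and the counting interval of the log2 ratio for FLS1 included equality (−0.07 to 0.02). GSTF12 in stop1 was 0.484, 0.266 and 0.511 times almt1 in the 3 conditions. With 1 library each, these values have no replicate check.

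Ratios of raw counts within a library do not depend on how libraries are scaled, and they show which genes moved together. CHS to CHI stayed between 9.37 and 15.5 in the 9 libraries. CHS to FLS1 was 2.76, 2.71 and 2.4 at high phosphate in wild type, stop1 and almt1, was 8.85, 4.89 and 4.26 at low phosphate, and was 4.22, 4.58 and 4.7 in the low-iron and malate libraries. Wild type at low phosphate was the highest, and the 3 high-phosphate libraries were the lowest. FLS1 to TT7 ranged from 7.04 in low iron to 19.3 in almt1 at high phosphate. CHS to MYB12 was 3.21, 4.29 and 3.84 at high phosphate, 25, 12.7 and 18 at low phosphate and 46, 92.1 and 54.4 with low iron in wild type and malate in stop1 and almt1. The transcript of the activator thus did not scale with that of CHS across these libraries.

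**Figure D3:**
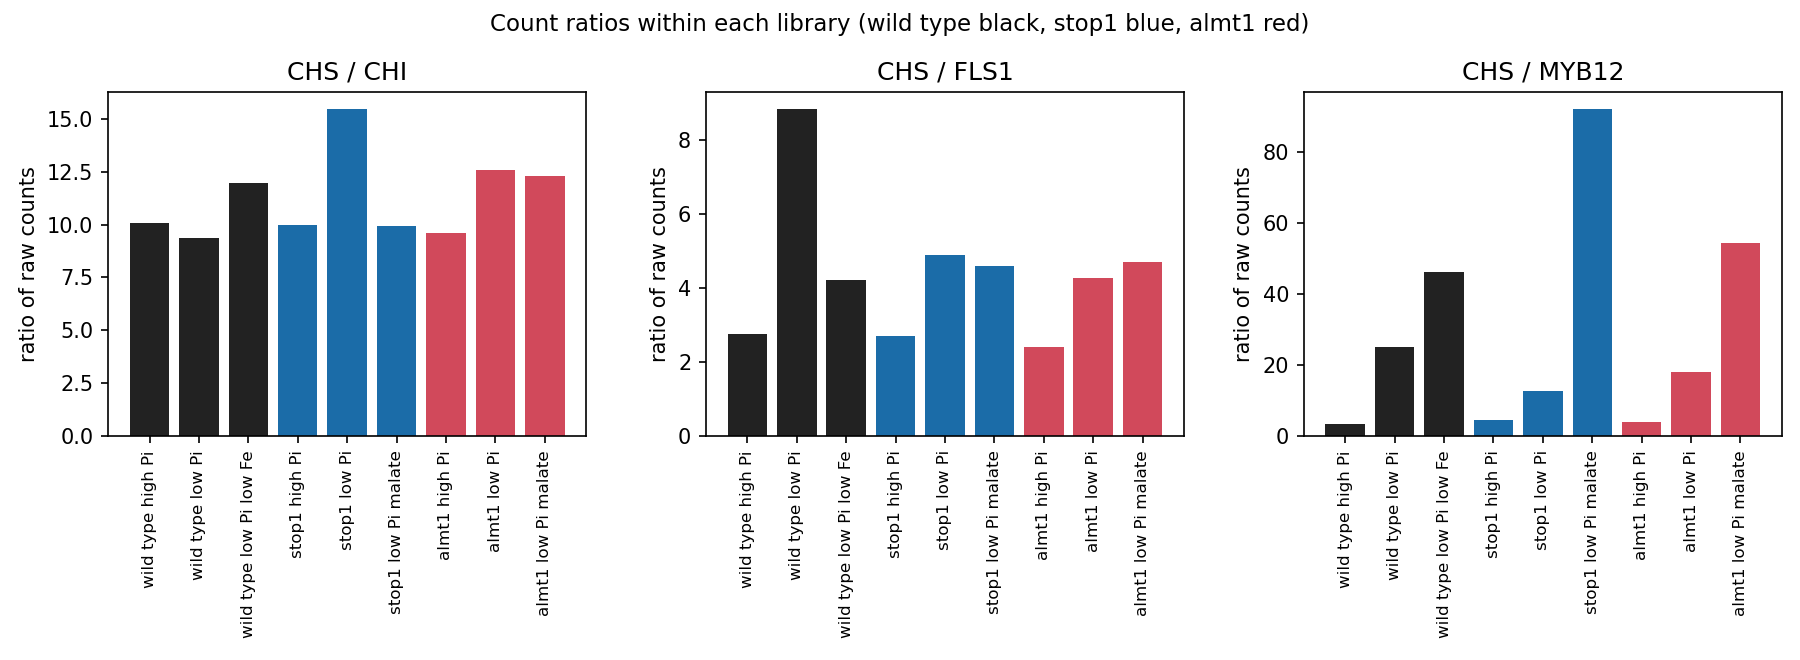
Ratios of raw counts of CHS to CHI, FLS1 and MYB12 in each of the 9 libraries (bars from 0, wild type black, stop1 blue, almt1 red, no replicates and so no error bars). CHS to CHI stays between 9.37 and 15.5, CHS to FLS1 peaks at 8.85 in wild type at low phosphate, and CHS to MYB12 runs from 3.21 to 92.1.

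As a description over the 9 libraries, which share condition and library set, the Pearson correlation of log2 CPM with CHS was 0.989 for CHI, 0.937 for FLS1, 0.92 for TT7, 0.803 for GSTF12 and −0.176 for MYB12. The 5 genes outside the 10 most like CHS, out of 15258 with a mean of at least 5 CPM, were AT3G57220 (0.995), AT3G21400 (0.992), FKBP53 (0.991), AT5G56730 (0.991) and EIF3E (0.991). Correlations above 0.9 were reached by 1928 of those genes (12.6%), so a high value in these 9 libraries is common.

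The enzymes that feed and surround the 10 genes were taken from lists of the pathway. Of 8 genes of the general phenylpropanoid steps, 1 rose at low phosphate over 3 genotypes, the coumaroyl-CoA ligase 4CL2 (log2 0.77, SE 0.12, edgeR adjusted p = 0.0474), and none fell, where 1.69% of all genes rose and 1.77% fell. 4CL3, the ligase isoform linked to flavonoid synthesis, stood at 1.98 to 4.6 CPM at high phosphate, 5.35 to 8.93 CPM at low phosphate, 61.1 CPM with low iron and 45.8 and 45.3 CPM with malate. It rose with malate by 2.58 (SE 0.273, edgeR adjusted p = 0.0066) and with low iron by 3.52 (SE 0.411, edgeR adjusted p = 0.00542), and no other gene of this list rose in those comparisons. PAL4, a phenylalanine ammonia-lyase, fell by 1.47 on the log2 scale with malate (SE 0.327, edgeR adjusted p = 0.0261). In each of these 2 comparisons 1 of the 8 rose and 1 fell, a share no higher than that of all genes (17.2% higher and 19.4% lower with malate, 12.5% and 18.1% with low iron), the latter with low iron being PAL3, which had at most 11 counts in a library and was named after its values were seen.

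Of 7 other flavonoid enzymes, 5 were tested. CHIL, a chalcone isomerase-like protein that raises CHS efficiency, stood at 35.2 to 93.8 CPM in the 6 libraries without low iron or malate and at 182, 167 and 150 CPM with low iron in wild type and malate in stop1 and almt1. It rose with low iron by 2.37 (SE 0.385, edgeR adjusted p = 0.0123) and with malate by 1.20 (SE 0.263, edgeR adjusted p = 0.0238). FLS5, a homologue of FLS1, stood at 411 to 596 CPM at high phosphate, 121 to 167 CPM at low phosphate and 53.3 to 77.2 CPM in the 3 others, the order opposite to that of CHS. Its log2 change was −1.88 at low phosphate over 3 genotypes (SE 0.211, edgeR adjusted p = 0.0266), −1.10 with malate (SE 0.176, edgeR adjusted p = 0.00951) and −1.18 with low iron (SE 0.25, edgeR adjusted p = 0.0184). FLS3 and FLS4, further homologues, fell with malate, with log2 changes of −1.48 and −0.77. Over 3 genotypes 0 of the 5 rose and 1 fell, where 1.69% of all genes rose and 1.77% fell. With malate 1 rose and 3 fell, and with low iron 1 rose and 2 fell, FLS5 and TT10, beside the shares of all genes just given for those 2 comparisons. TT10, with at most 4.17 CPM in a library, is too low for the naming rule. BAN, which leads to the tannins of the seed coat, had 9 counts in all.

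Of 14 genes that decorate flavonoids with sugars, methyl or acyl groups, 11 were tested. The flavonol 3-O-rhamnosyltransferase UGT78D1 stood at 1.03 to 1.12 CPM at high phosphate, and at low phosphate at 7.55 CPM in wild type but at 1.4 and 2.44 CPM in stop1 and almt1. It rose at low phosphate in wild type by 2.75 (SE 0.452, edgeR adjusted p = 0.0151) and was lower in the mutants than in wild type there (−1.97, SE 0.338, edgeR adjusted p = 0.0238). It rose with malate to 9.1 and 7.34 CPM (edgeR adjusted p = 0.00777), and fell by 1.62 on the log2 scale with low iron (SE 0.407, edgeR adjusted p = 0.0297). All of these but the malate result share the single wild-type library at low phosphate, with 44.9% multiply aligned reads, whose part was not tested. The flavonoid 3-O-glucosyltransferase UGT78D2, the flavonol 7-O-rhamnosyltransferase UGT89C1 and RHM1, which makes UDP-rhamnose, rose with malate by 0.74, 0.85 and 0.57 and with low iron by 1.57, 1.09 and 1.15. In wild type at low phosphate, BGLU10 of this list stood at 36.7 CPM without and 8.94 CPM with low iron. SAT stood there at 1.42 and 5.36 CPM and UGT84A2 at 42.5 and 99.3 CPM. With malate 4 of the 11 rose and 2 fell, where 17.2% of all genes rose and 19.4% fell, and with low iron 5 rose and 2 fell, where 12.5% of all genes rose and 18.1% fell. The 2 that fell in each are near the share of all genes. Over 3 genotypes at low phosphate UGT84A2, a sinapate glucosyltransferase, was the 1 that rose (1.33, SE 0.205, edgeR adjusted p = 0.0467) and none fell, where 1.69% of all genes rose and 1.77% fell. In TAIR10.1, 99.6% of the exon bases of UGT89C1 are shared with another locus, so its reads are uncertain as to their gene. Of 6 genes of flavonoid transport into the vacuole, 5 were tested, and 3 rose with malate and 2 with low iron, among them ABCC2 (0.52 and 0.67) and TT9 (0.47 and 0.82), and none fell in either.

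Of 19 regulators, 11 were tested. The anthocyanin activators MYB75, MYB113 and MYB114 had 0 counts in all 9 libraries, and MYB90 had 19 counts, TT8 17 and TT2 19 in all. GL3 and EGL3, bHLH factors also active in root epidermis, rose with low iron by 0.73 (SE 0.189, edgeR adjusted p = 0.0329) and 1.23 (SE 0.194, edgeR adjusted p = 0.00829), and GL3 with malate by 0.51 (SE 0.132, edgeR adjusted p = 0.029). LBD37, a nitrate-responsive repressor of anthocyanin genes, stood at 216 to 259 CPM at high phosphate, 110 to 170 CPM at low phosphate and 78.2 to 90.1 CPM in the 3 others. Its low-phosphate change over 3 genotypes was not called (log2 −0.88, SE 0.147, edgeR adjusted p = 0.0539). It fell at low phosphate in the fits of the mutants (log2 −0.78, SE 0.14, edgeR adjusted p = 0.0342) and in wild type (−1.02, SE 0.199, edgeR adjusted p = 0.0218), and with malate (−0.71, SE 0.141, edgeR adjusted p = 0.0143). HY5, a light-signalling factor that activates CHS and MYB12, fell at low phosphate in wild type (log2 −1.34, SE 0.164, edgeR adjusted p = 0.0079) and with malate (−0.50, SE 0.114, edgeR adjusted p = 0.0201). The wild-type changes of LBD37 and HY5 include the low-phosphate library with 44.9% multiply aligned reads, whose part was not tested. MYBL2, a repressor of anthocyanin synthesis chosen after its values were seen because it is too low for the naming rule, stood at 2.06 to 2.82 CPM at high phosphate and at most at 0.291 CPM elsewhere, and fell over 3 genotypes (log2 −4.07, SE 0.458, edgeR adjusted p = 0.0266). Over 3 genotypes 0 of the 11 rose and 1 fell, with malate 2 rose and 2 fell, and with low iron 2 rose and 1 fell. Among all genes 1.69% rose and 1.77% fell over 3 genotypes, 17.2% rose and 19.4% fell with malate, and 12.5% rose and 18.1% fell with low iron. Nothing particular to the regulators is read from these counts. Beside HY5 and MYBL2, the summed level of 5 photosynthesis genes was 26.5 to 67.4 CPM at high phosphate and 7.08 to 16.3 CPM in the other libraries, and its part in these values was not tested.

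**Figure D4:**
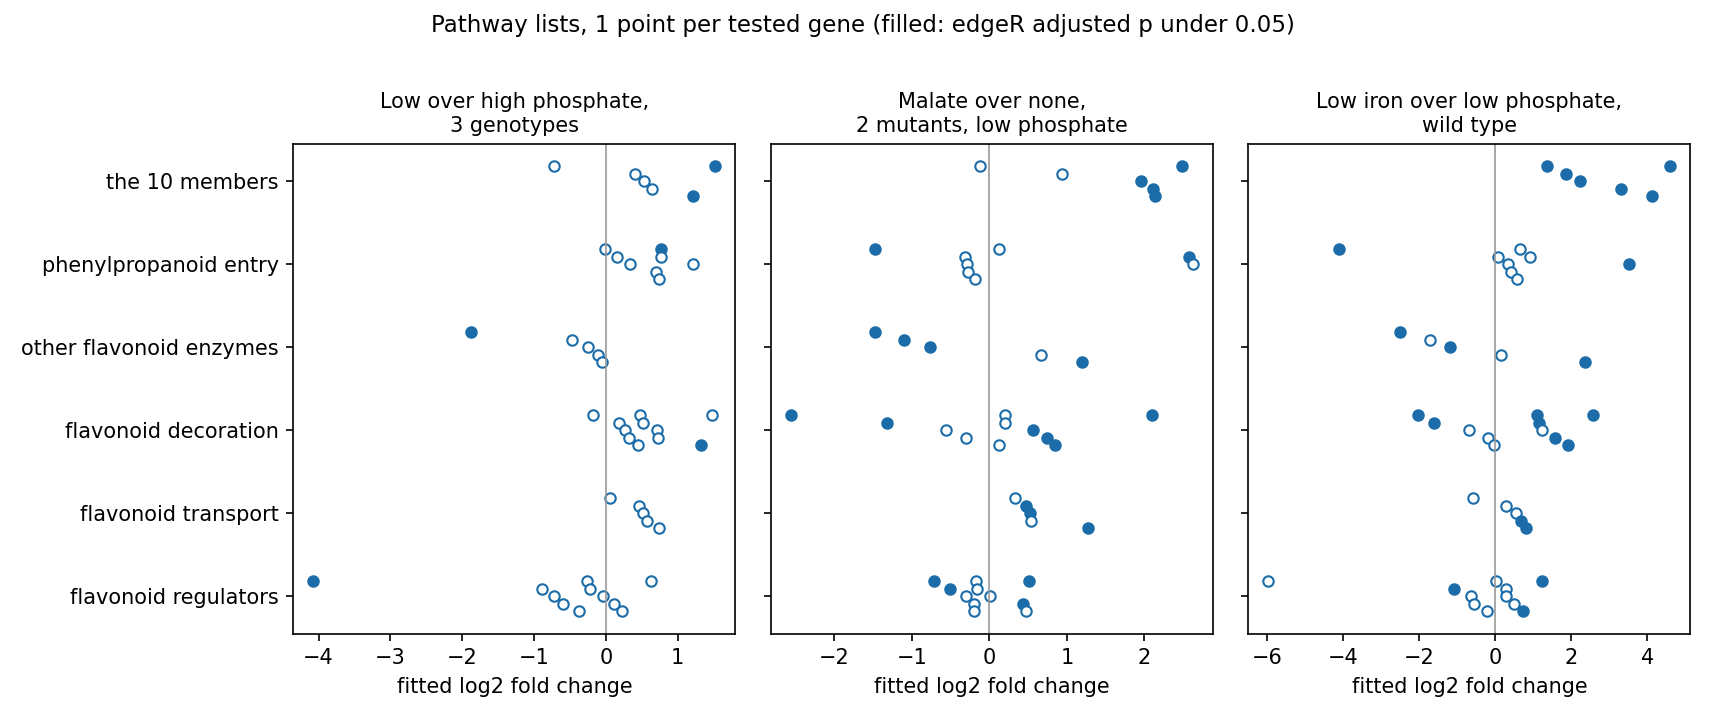
Fitted log2 fold changes of the tested genes of the 6 pathway lists in 3 comparisons, 1 point per gene, filled where the edgeR adjusted p is under 0.05 (each panel has its own axis). Of the 10 genes the 6 tested are drawn, with 2, 4 and 6 filled, all to the right of 0. Among all genes 1.69%, 17.2% and 12.5% were called higher in these comparisons. Filled points of the transport list also lie to the right of 0, and the other lists hold filled points on both sides in the malate and low-iron panels.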

How the data were processed

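The deposited files hold raw counts per locus for each library, with 33602 loci and 5 summary lines that were kept out of library sizes and tests. Per the submitters' processing notes the authors used TopHat2, HTSeq and the TAIR10 genome, whose versions and settings are not given in the sources used here. Per the labels' protocols the libraries were made with a TruSeq kit that does not keep the strand. For the stop1 sample with malate, the title has +Pi where the treatment label has low phosphate, and the latter was followed. Counts were analysed with R 4.3.3 and edgeR 4.0.16 (limma 3.58.1). They were scaled by TMM, filtered with filterByExpr (minimum count 10, minimum total 15) and tested by quasi-likelihood with Benjamini-Hochberg adjustment over all genes and a threshold of 0.05. The phosphate comparison across 3 genotypes was fitted to 6 libraries, blocked by genotype. The other fits used 9 libraries with stop1 and almt1 as stand-in replicates of 1 mutant class, with a stop1 against almt1 term except for mutants against wild type, and left 2 or 3 residual degrees of freedom. The SE printed is the size of a fitted change over the root of its F statistic. The spread in these fits came from differences between genotypes with 1 library each, and not from replicates of a group. Nothing says that samples came from more than 1 growth, so part of that spread may be technical. Single-library ratios carry exact conditional binomial intervals at 95%. Correlations used log2 CPM with a prior count of 2. DESeq2 1.42.0, RLE factors, no filter and left-out libraries were the alternatives. Fits with fewer libraries left fewer residual degrees of freedom and share their libraries, so they are not separate checks. Some of the fits were also run on simulated counts with the same spread for every gene and no difference between stand-in replicates. Those runs do not check the use of genotypes as replicates. Motifs and shared exon bases were read from TAIR10.1, in which all 10 genes and 32835 loci were found. All 10 genes are named. From each pathway list the rule was to name up to 4 called genes with the largest changes and at least 5 CPM in a library. It was not kept throughout. PAL3, MYBL2 and TT10 were named outside it, and for low iron BGLU10, SAT and UGT84A2 are given by level only. The members and lists were chosen with earlier results of these data known.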

Additional observations from a re-analysis of the deposited data

Results flagged for a closer look

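MYB12 moved in opposite directions in the mutants when malate was added at low phosphate. Its log2 ratio of malate over none was −0.60 in stop1 (−0.5958, 95% counting interval −0.79 to −0.41) and 0.39 in almt1 (0.3904, interval 0.22 to 0.56), and both intervals exclude equality. This difference between the mutants was not tested, since each value comes from 1 pair of libraries.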

How the results depend on the processing

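The fitted values of the 6 tested genes in 8 comparisons were recomputed 450 times under other settings. In 156 of these the 1 library left out was in neither group compared, so the direction was fixed, and the call was lost in 8 and gained in 12. In the other 294, direction and side of the threshold stayed as reported in 254, the call was lost in 17 and gained in 14, and in 9 the sign turned, each when 1 mutant library was left out and each of a change that had not been called. No wild-type library was left out on its own. With each of the 6 mutant libraries left out in turn, MYB12 ran from −0.814 to 0.145 for low phosphate in the mutants, turning without almt1 at low phosphate, and from −0.649 to 0.117 for mutants against wild type at high phosphate, turning without stop1 there. For malate it ran from −0.582 to 0.377, turning without stop1 at low phosphate (0.377) or with malate (0.145). CHS ran from −0.251 to 0.151 for the wild-type minus mutant response, turning without stop1 at high phosphate. In mutants against wild type at high phosphate, CHS ran from −0.23 to 0.376, CHI from −0.209 to 0.453 and FLS1 from −0.204 to 0.58, each turning without almt1 there, and at low phosphate CHS ran from −0.0515 to 0.294. The cause was not tested.

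Counts of called genes moved more. Over 3 genotypes 725 genes were called, 1982 with DESeq2, and 1 to 4629 with a genotype left out, with 0 to 4 of the 6 genes among them. In the mutants 1148 genes were called, 4631 with 6 libraries, and 0 to 5298 with 1 mutant library left out, with 0 to 4 of the 6 genes, and 4 of them with DESeq2 or with 6 libraries. In wild type 4631 genes were called, 8581 with 6 libraries and 1434 to 9085 with 1 left out, with 1 to 3 of the 6. For the wild-type minus mutant response, 265 became 959 with DESeq2, 514 with RLE factors, 548 without the filter, 3764 with 6 libraries (2 of the 6 genes) and 0 to 4641 with 1 left out (0 to 2). With malate 7763 genes became 69 to 10206 (0 to 5 of the 6), and with low iron 6500 became 3337 to 10168 (5 to 6). Mutants against wild type at high phosphate gave 2 genes with the stop1 against almt1 term, and 0 with each of the 6 mutant libraries left out, the wild-type library being kept. At low phosphate 1401 genes became 2264 with DESeq2 (2 of the 6), 2222 with that term (2 of the 6) and 130 to 1476 with 1 left out (0 to 1).

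The labels give no replicate numbers shared between groups, so libraries were paired by genotype. Leaving out that block over 3 genotypes gave 1160 genes with CHS and CHI still called. Scaling by total counts moved the median log2 ratio of all genes to 0.105 for low phosphate in wild type and to 0.136 and 0.13 for malate in stop1 and almt1. Of 96 single-library ratios of the 6 genes, 45 were at least 2-fold beyond counting error, 42 with total and 45 with RLE scaling. By the same rule, 0.612% to 12.7% of all genes were higher in a library pair and 0.711% to 17.5% lower, depending on the pair. For DFR, LDOX and MYB111 no library pair with counts differed beyond counting error, so differences were not detectable at this depth. For F3H, with at most 9 counts in a library, 4 of 16 pairs did.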
